A study of Homo sapiens with 18 samples.

Results

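The eukaryotic translation initiation factors are the proteins that bring the small ribosomal subunit, the initiator tRNA and the mRNA together at a start codon. Their genes were taken here by name: a gene belonged to the set when its symbol, assigned through the RefSeq accession of its probe, began with EIF1, EIF2, EIF3, EIF4, EIF5 or EIF6 and it was not a pseudogene. The rule found 53 genes on 74 probes among 19740 named genes, and left out 1 pseudogene. A probe entered the tests when every array of some group showed it well above background. This kept 73 of the 74 probes and 52 of the 53 genes, without EIF4E1B. No measured value entered the rule. EIF2S3, EIF2S3B, EIF3CL and EIF4EBP3 were not analysed here. EIF1AY is included in the counts of members, and its values are not given.

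The cells were EpCAM+ cells sorted from Huh1 and Huh7, which are established human hepatocellular carcinoma lines; EpCAM is an epithelial adhesion molecule used to mark cells with tumor-initiating properties. Cells of each line received disulfiram (DSF, an aldehyde dehydrogenase inhibitor, 0.1 µM), 5-fluorouracil (5-FU, a pyrimidine analog that interferes with DNA and RNA synthesis, 1 µM) or neither drug. The drugs were given for 48 hours, and no time is stated for the control cells. According to the methods DSF was given with copper chloride, and what control cells received is not stated, so effects of DSF and of copper cannot be told apart. Each of the 6 groups held 3 one-color arrays, 18 arrays in all, described as independent experiments, each line being a single established culture. A level is the log2 intensity of a probe minus the log2 75th percentile of its array, and the brightest tested probe stands for its gene. Changes are differences of mean levels in a limma fit of all 6 groups, with 12 residual degrees of freedom. A gene was called at a Benjamini-Hochberg adjusted p under 0.05 over all 29894 tested probes. An exact rank test of 3 arrays against 3 cannot give a p below 0.1.

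Some features of the arrays bear on the values. The level is relative to the bulk of each array: against 7 spike-in probes, the 75th percentile itself stood 0.83 higher on the log2 scale after 5-FU in Huh1 and 0.98 higher in Huh7, against 0.13 and -0.18 after DSF. A fall after 5-FU that is smaller than this shift therefore becomes a rise when arrays are scaled to the spike-ins, and which scale reflects RNA per cell was not tested. Scaled to the spike-ins, 16 of the line differences with DSF given below and 19 of those with 5-FU lost their call. In each line all control and 5-FU arrays lay on 1 slide, but of the DSF arrays replicate 3 of Huh1 lay on the slide of the Huh7 samples, and replicates 2 and 3 of Huh7 on slide 3, which was scanned on another day. Counts of members called after DSF are therefore also given without these 3 arrays, with the calls then lost listed beside them. Line differences lost in this way are listed among the flagged results, and the paragraphs on single genes repeat only some of these losses. All 7 markers chosen for the labelled cells (EPCAM, AFP, ALB, APOA1, TTR, HNF4A and SERPINA1) were well above background on all 18 arrays. The leukocyte markers PTPRC and CD14 and the endothelial markers PECAM1 and CDH5 were also above background on 18 arrays, and the endothelial marker VWF on 13. The stromal markers COL1A1 and DCN were above background on 11 arrays each, COL1A2 on 2 and ACTA2 on 4, and the leukocyte marker CD3E on 6. The 4 summed stromal markers reached a log2 level of -2.18 to -1.78 after 5-FU in Huh7 against -3.46 to -3.19 in its controls, while after DSF in Huh7 they were at -4.63 to -4.33. The 3 summed endothelial markers were at -1.25 to -1.03 after 5-FU in Huh7 against at most -1.87 in its controls. The part of these markers in the results was not tested. In such bulk samples fewer cells of a type and less RNA per cell cannot be told apart.

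Initiation starts when eIF2 carries the initiator tRNA to the small subunit together with eIF1, eIF1A, eIF3 and eIF5, and the cap-binding complex eIF4F (eIF4E, eIF4G and the helicase eIF4A) recruits the mRNA. The eIF2 kinases stop this by phosphorylating the eIF2 alpha subunit, which then blocks its exchange factor eIF2B, and the 4E-binding proteins stop cap binding until mTOR phosphorylates them. Many mRNAs of the translation apparatus begin with a run of pyrimidines, the 5′ terminal oligopyrimidine tract, through which mTOR signaling controls their translation and stability. The arrays measured mRNA levels of these factors, and neither protein, phosphorylation nor translation.

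After DSF, more members were called higher than lower in each line. In Huh1, 16 of 52 were called higher and 8 lower, where 26.4% of all 15852 tested genes were higher and 26.3% lower, and the median change of the members was 0.05 against -0.02 for all genes. In Huh7, 26 were higher and 4 lower (all genes 29.1% and 24.1%), with a median of 0.20 against 0.04. Scaled to spike-ins, 10 were higher and 1 lower in Huh1, against 3 and 3 in Huh7. Without the DSF arrays on another slide, 10 members were called higher and 7 lower in Huh1, against 20 and 1 in Huh7. The calls lost were those of EIF2AK4, EIF2B5, EIF2D, EIF2S2, EIF3D, EIF3H, EIF3M and EIF6 in Huh1, and of EIF1, EIF3H, EIF4A3, EIF4EBP1, EIF4EBP2, EIF4G1, EIF4G3, EIF4H, EIF5A2 and EIF5B in Huh7. With arrays scaled to their median, a setting that moved all probes by -0.17 in Huh1, 5 members were higher and 17 lower there, and the median fell to -0.12.

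After 5-FU the balance was the opposite on the 75th percentile scale. In Huh1, 8 members were called higher and 25 lower (all genes 25.9% and 29.1%). The counts for Huh7 were 9 and 25 (all genes 32.5% and 31.0%). The median change was -0.13 for Huh1 and -0.12 for Huh7, against -0.03 and -0.01 for all genes. Scaled to the spike-ins, 43 members were higher in each line, while 1 was lower in Huh1 and 2 in Huh7, so the direction of the set after 5-FU depends on the scale. Such a constant shift moves all members alike and keeps their spread within a comparison, which ran from -1.19 (EIF5A) to 0.81 (EIF2AK4) in Huh1 and from -1.34 (EIF2D) to 1.37 (EIF5A2) in Huh7.

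The calls of the 2 lines were set side by side within each drug, which uses separate arrays. DSF raised 8 members in both lines (EIF1, EIF2B2, EIF3H, EIF3I, EIF4E2, EIF4A3, EIF5 and EIF6) and lowered EIF4EBP2 in both, and 5 (EIF1AX, EIF4E, EIF4G1, EIF4ENIF1 and EIF5A) were called lower in Huh1 and higher in Huh7, where 8.82% of all genes were called in opposite directions. On the spike-in scale none of the line differences of these 5 was called. EIF1, EIF4A3, EIF4EBP2 and EIF4G1 lost the call in Huh7 without the DSF arrays on another slide, EIF6 in Huh1 and EIF3H in both. Scaled to the spike-ins, 3 members of the whole set were called higher after DSF in Huh7. At most 3 of the 8 rises thus stayed shared on that scale. Of all genes, 11.7% were called higher in both lines after DSF and 10.4% lower in both. 5-FU left 6 members higher in both lines (EIF1AD, EIF2B1, EIF2B2, EIF2AK4, EIF5A2 and EIF6) and 18 lower in both, where 16.0% of all genes were higher in both and 17.3% lower in both, again on the 75th percentile scale. With all arrays and on the 75th percentile scale, EIF2B2 and EIF6 were thus called higher in all 4 comparisons with control, which share the control arrays of each line.

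**Figure D1:**
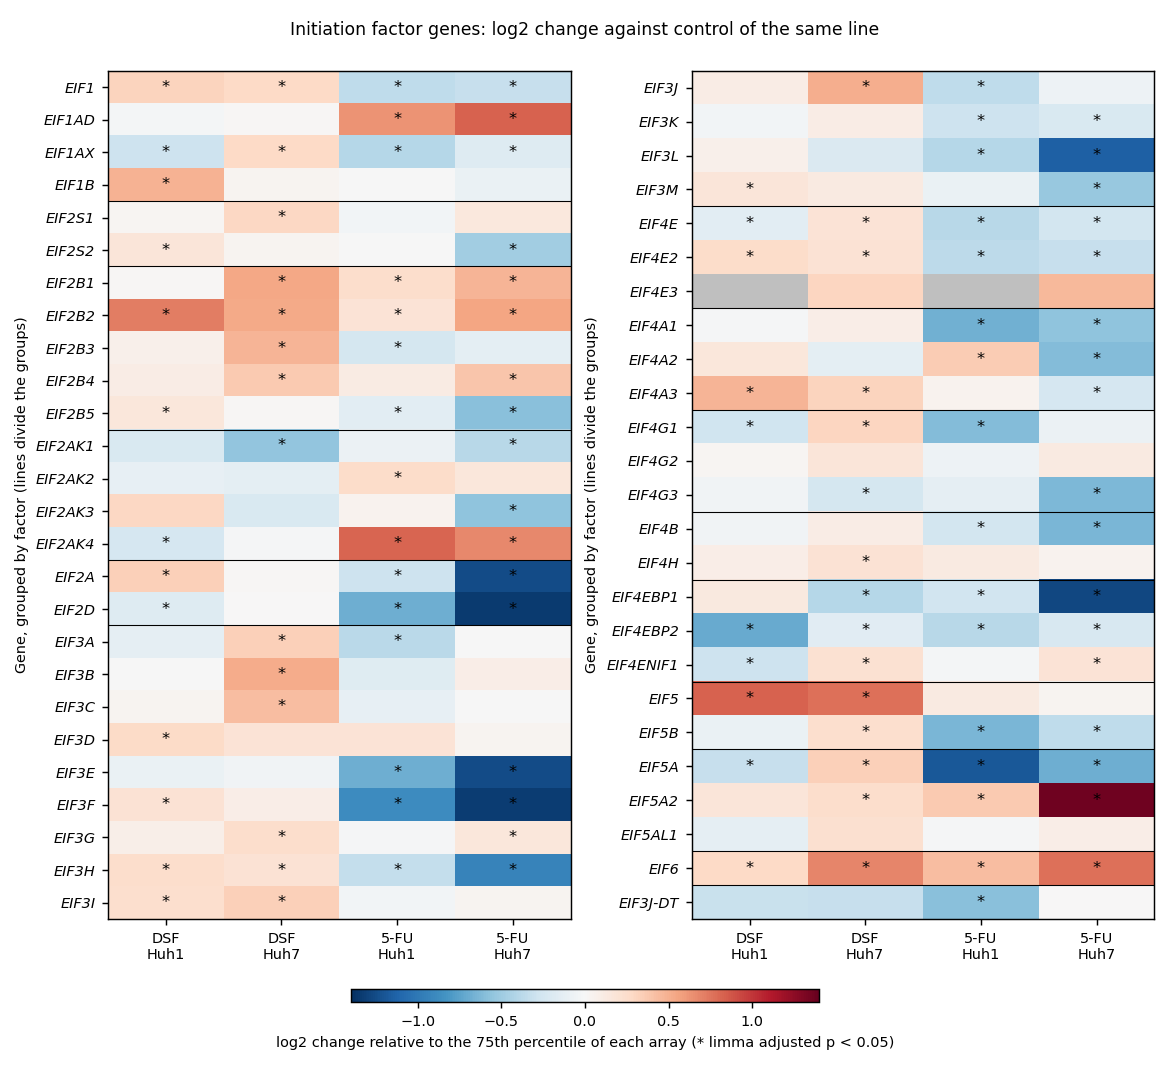
Log2 change against the control of the same line for 51 initiation factor genes (rows, grouped by factor) in the 4 comparisons of drug with control (columns), relative to the 75th percentile of each array; stars mark a limma adjusted p under 0.05 and grey cells mark EIF4E3 in Huh1, which was not well above background there. The strongest blue lies in the 5-FU columns, at EIF2A, EIF2D, EIF3E, EIF3F, EIF3L and EIF4EBP1 in Huh7 and EIF5A in Huh1, and scaling to spike-ins moves these columns up by 0.98 and 0.83.

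Among the 4 eIF2 kinases, EIF2AK4 rose after 5-FU in both lines and no kinase was called higher after DSF. EIF2AK4 encodes GCN2, which is activated by uncharged tRNA and stalled ribosomes. Its level was 1.66, 1.47 and 1.54 on the Huh1 control arrays and 2.25, 2.43 and 2.43 after 5-FU, a rise of 0.81 (SE 0.09, limma adjusted p = 7.81e-06), or 1.75-fold. In Huh7 it was 0.81, 0.92 and 0.90 in controls and 1.73, 1.39 and 1.53 after 5-FU, a rise of 0.67 (SE 0.09, limma adjusted p = 2.32e-05). The groups did not overlap in either line, and on the spike-in scale the rises were larger, 1.64 and 1.66. After DSF the level was 1.37, 1.32 and 1.27 in Huh1, 0.24 under control (SE 0.09, limma adjusted p = 0.0497). That call was lost without the array on another slide (-0.21, limma adjusted p = 0.123), and in Huh7 the change was -0.02 (SE 0.09).

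EIF2AK1, which encodes the heme-regulated kinase HRI, was lower after DSF in Huh7. The control arrays read 2.83, 2.83 and 2.87 and the DSF arrays 2.53, 2.15 and 2.19, a fall of 0.55 (SE 0.09, limma adjusted p = 1.33e-04). Replicate 1, the DSF array that shares the slide of the controls, fell least, and with it alone the change was -0.31 (limma adjusted p = 0.0143). In Huh1 the DSF arrays read 2.80, 2.76 and 2.91 against 2.97, 3.10 and 3.04, 0.21 lower without passing the threshold (adjusted p = 0.0571, limma), and the line difference was -0.34 (SE 0.12, limma adjusted p = 0.0393). Without the arrays on other slides that difference was -0.05 and not called (limma adjusted p = 0.751). After 5-FU it was -0.08 (SE 0.09) in Huh1 and -0.39 (SE 0.09), called, in Huh7, the latter turning to 0.60 on the spike-in scale.

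EIF2AK3 encodes PERK, the kinase of the endoplasmic reticulum stress response, and here the lines went apart. In Huh1 the level was -1.50, -1.95 and -1.97 in controls, with replicate 1 the highest, -1.49, -1.59 and -1.47 after DSF and -1.95, -1.68 and -1.64 after 5-FU, and neither change was called. In Huh7 it was -0.43, -0.55 and -0.53 in controls, -0.78, -0.68 and -0.69 after DSF and -1.17, -1.04 and -0.98 after 5-FU. There the change of -0.21 after DSF was not called, and 5-FU lowered it by 0.56 (SE 0.11, limma adjusted p = 7.75e-04), a change of 0.43 on the spike-in scale. The effect in Huh7 was below that in Huh1 by 0.51 for DSF (SE 0.16, limma adjusted p = 0.0232) and by 0.61 for 5-FU (SE 0.16, limma adjusted p = 0.00897). With the slide as a block the DSF difference lost its call (-0.55). On the spike-in scale the DSF difference kept its call (-0.82) and the 5-FU difference lost it (-0.45). For EIF2AK2, which encodes the double-stranded RNA sensor PKR, the changes were -0.11 (SE 0.07) and -0.13 (SE 0.07) after DSF, and 0.25 (SE 0.07), called, and 0.16 (SE 0.07), not called, after 5-FU.

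**Figure D2:**
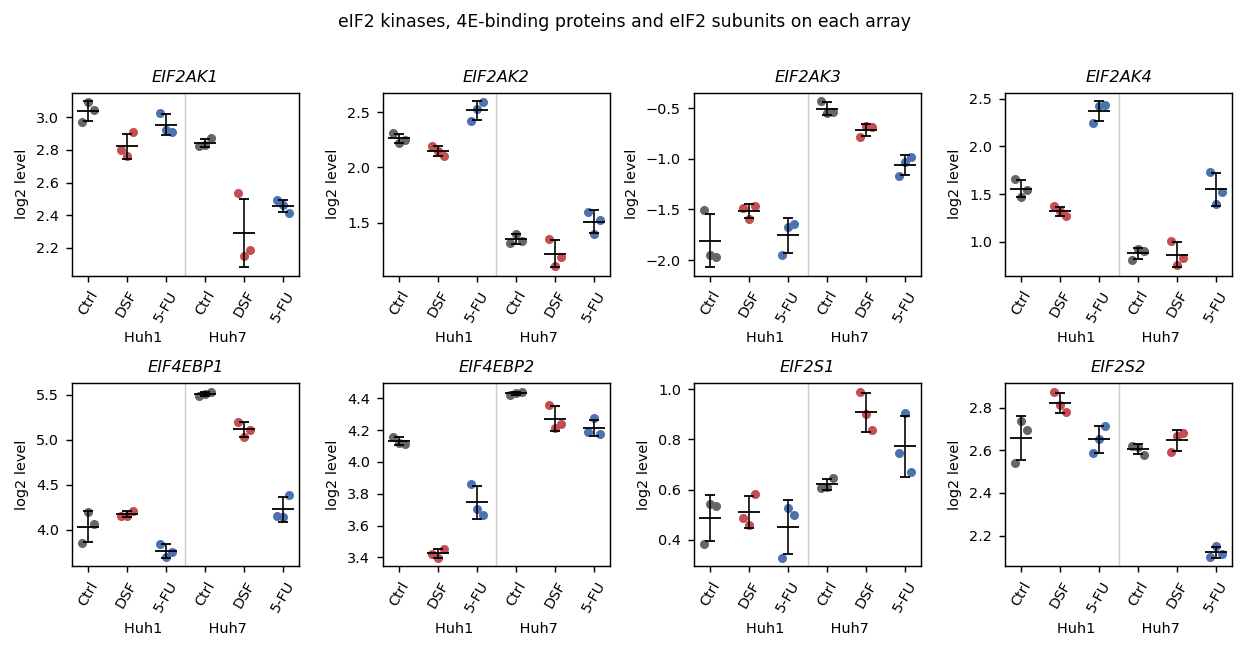
Level of each gene (log2 intensity minus the log2 75th percentile of the array) on all 3 arrays of each group, with Huh1 on the left and Huh7 on the right of each panel; points are arrays, horizontal bars the group mean and whiskers the SD (n = 3). EIF2AK4 stands above control on all 5-FU arrays of both lines, and EIF4EBP2 below control on all DSF arrays of Huh1. Panels have their own axes, since levels of different probes cannot be compared.

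EIF2S1, the alpha subunit that the kinases phosphorylate, passed the threshold in 1 of the 4 comparisons with control, DSF in Huh7. There the controls read 0.61, 0.61 and 0.65 and the DSF arrays 0.99, 0.90 and 0.84, a rise of 0.29 (SE 0.08, limma adjusted p = 0.00722), and the difference from Huh1 was not called (0.27, adjusted p = 0.0669, limma). EIF2S2, the beta subunit, read 2.62, 2.62 and 2.58 in Huh7 controls and 2.10, 2.15 and 2.11 after 5-FU, 0.48 lower (SE 0.06, limma adjusted p = 7.94e-06) but 0.50 on the spike-in scale. Its rise of 0.17 after DSF in Huh1 was contradicted by a dimmer probe of the gene, at -0.42 (adjusted p = 0.00124, limma). The same dimmer probe was -0.84 after DSF in Huh7 (adjusted p = 3.11e-06, limma), where the brighter one changed by 0.04. It was 0.62 after 5-FU in Huh1 (adjusted p = 4.57e-05, limma), against -0.01 for the brighter one, so the probes of this gene disagree.

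eIF2B, the guanine nucleotide exchange factor that reloads eIF2 with GTP, is built from 5 different subunits, and after DSF in Huh7 4 of them rose. EIF2B1 to EIF2B4 changed by 0.54, 0.53, 0.47 and 0.37 there, all called, while EIF2B5, the catalytic subunit, changed by 0.02 (SE 0.06). In Huh1 the called rises were those of EIF2B2 and EIF2B5, and the line difference was called for EIF2B1 (0.53), EIF2B3 (0.40) and EIF2B4 (0.27). On the spike-in scale these differences were 0.22, 0.09 and -0.04, and none was called. The EIF2B5 call in Huh1 was lost without the array on another slide. EIF2B2, the beta subunit, showed the largest DSF change of the complex. It read 2.68, 2.78 and 2.69 in Huh1 controls and 3.41, 3.42 and 3.46 after DSF, 0.71 higher (SE 0.07, limma adjusted p = 3.09e-06). In Huh7 it read 2.71, 2.73 and 2.69 in controls and 3.30, 3.17 and 3.24 after DSF.

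5-FU split the same complex. EIF2B1, EIF2B2 and EIF2B4 stood 0.48, 0.56 and 0.39 above control in Huh7, and EIF2B5 0.59 below (SE 0.06, limma adjusted p = 7.86e-07), with arrays of 1.32, 1.26 and 1.27 in controls and 0.76, 0.67 and 0.66 after 5-FU. On the spike-in scale the change of EIF2B5 was 0.40 and that of EIF2B2 1.54, so the order of the subunits stayed while the sign of EIF2B5 turned. In Huh1 the 5-FU changes of the subunits lay between -0.25 and 0.25.

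EIF1, which guards the stringency of start codon choice, moved in opposite directions with the drugs, with close values in the lines. It read 8.09, 8.10 and 8.03 in Huh1 controls, 8.34, 8.38 and 8.44 after DSF and 7.71, 7.70 and 7.77 after 5-FU. The Huh7 arrays read 8.10, 8.10 and 8.11 in controls, 8.25, 8.47 and 8.43 after DSF and 7.75, 7.86 and 7.74 after 5-FU. The groups did not overlap: DSF changed it by 0.31 and 0.28, and 5-FU by -0.35 and -0.32, all called. The DSF call in Huh7 was lost with replicate 1 alone (0.15), and the 5-FU changes turned to 0.48 and 0.67 on the spike-in scale and to 0.065 and 0.23 under quantile normalization. EIF1AD, an eIF1A-like protein of the nucleus, rose after 5-FU from 2.30, 2.32 and 2.30 to 2.80, 3.06 and 2.97 in Huh1 and from 2.11, 2.14 and 2.11 to 3.06, 2.89 and 2.89 in Huh7, by 0.63 and 0.83. Its changes after DSF, -0.03 and 0.02, did not pass the threshold. EIF1AX, the eIF1A of the scanning ribosome, was lower in Huh1 (-0.29) and higher in Huh7 (0.28) after DSF, a line difference of 0.57 (SE 0.09, limma adjusted p = 3.02e-04). On the spike-in scale the difference was 0.26 and not called. EIF1AX has a near-identical copy that its probe may also read, and another probe of the gene was lower in Huh1 as well but did not pass the threshold in Huh7 (-0.15). EIF1B, a paralog of EIF1, rose by 0.48 (SE 0.08, limma adjusted p = 1.38e-04) after DSF in Huh1, against 0.04 (SE 0.08) in Huh7.

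eIF3 is the largest initiation factor, a scaffold of 13 subunits (a to m) on the small ribosomal subunit, and all 13 genes were measured. After 5-FU they did not move as a unit. On the 75th percentile scale EIF3F, EIF3E, EIF3L and EIF3H were lower in both lines, by 1.33, 1.25, 1.14 and 0.93 in Huh7 and by 0.88, 0.68, 0.40 and 0.34 in Huh1. EIF3M was called in Huh7 (-0.53), and EIF3K was lower by 0.29 and 0.21. In contrast, EIF3A, EIF3B, EIF3C, EIF3D, EIF3I and EIF3J lay between -0.07 and 0.09 in Huh7 with none called, and EIF3G rose by 0.16 (SE 0.06, limma adjusted p = 0.0428). The subunits a, b, c, g and i make up the core that human eIF3 shares with budding yeast, and e, f, h, k, l and m are among those that yeast lacks. This grouping was chosen after the values were seen and is a description.

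EIF3F read 3.58, 3.55 and 3.48 in Huh1 controls and 2.64, 2.65 and 2.68 after 5-FU. In Huh7 its controls read 3.48, 3.52 and 3.49 and the 5-FU arrays 2.26, 2.20 and 2.04. EIF3E went from 6.35, 6.28 and 6.27 in controls to 5.58, 5.67 and 5.60 after 5-FU in Huh1, and from 5.40, 5.38 and 5.38 to 4.28, 4.11 and 4.02 in Huh7. Treated and control arrays did not overlap for either gene. The changes of EIF3F had adjusted p = 8.60e-08 and 4.65e-10, and those of EIF3E 1.26e-06 and 1.50e-09 (limma), and in Huh7 the level of EIF3F after 5-FU was 2.51-fold lower than control. On the spike-in scale EIF3F, EIF3E and EIF3L stayed below control in Huh7 (-0.34, -0.27 and -0.16), with only EIF3F called, EIF3H and EIF3M did not (0.05 and 0.46), while in Huh1 EIF3F was at -0.05 and EIF3E at 0.15. The fall in Huh7 exceeded that in Huh1 for EIF3L (-0.74), EIF3H (-0.60), EIF3E (-0.57), EIF3F (-0.45) and EIF3M (-0.43), and the difference was called for each. It ran the other way for EIF3A (0.37) and EIF3J (0.28), which were lower in Huh1 (-0.37 and -0.35). On the spike-in scale none of these differences was called. They were then -0.59 for EIF3L, -0.44 for EIF3H, -0.41 for EIF3E, -0.29 for EIF3F and -0.28 for EIF3M. Those of EIF3A and EIF3J were 0.53 and 0.44.

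**Figure D3:**
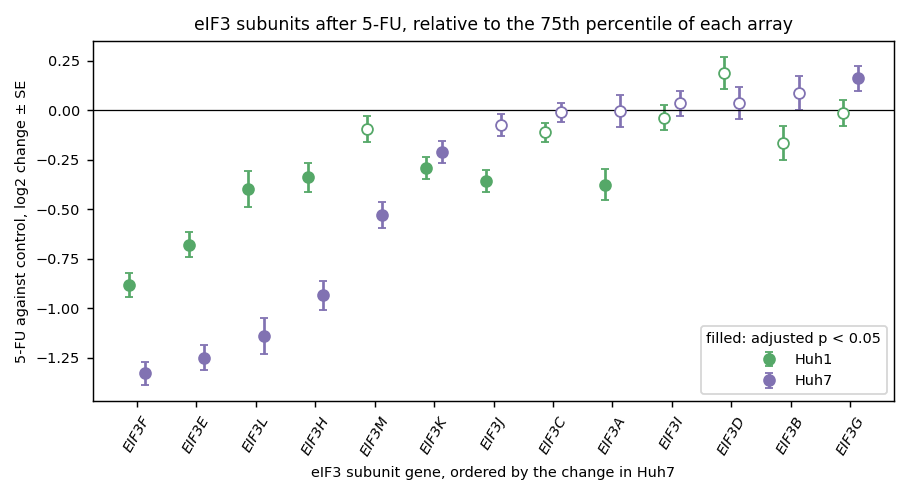
Log2 change after 5-FU (relative to the 75th percentile of each array, with the standard error of the limma fit) for the 13 eIF3 subunit genes in Huh1 (green) and Huh7 (purple), ordered by the change in Huh7; filled points had an adjusted p under 0.05. The changes in Huh7 ran from -1.33 for EIF3F to 0.16 for EIF3G, and scaling to spike-ins moves all points up, by 0.83 in Huh1 and 0.98 in Huh7.

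With levels as defined above, DSF raised eIF3 genes and lowered none past the threshold, but the number of calls depends on the scale. In Huh1, where 26.4% of all genes were higher, 5 of 13 were called higher (EIF3D, EIF3F, EIF3H, EIF3I and EIF3M, by 0.17 to 0.27), and in Huh7, with 29.1% of all genes, 7 of 13 (EIF3A, EIF3B, EIF3C, EIF3G, EIF3H, EIF3I and EIF3J, by 0.20 to 0.52). Without the DSF arrays on another slide, EIF3D, EIF3H and EIF3M lost the call in Huh1 and EIF3H in Huh7. Scaled to the spike-ins, 3 members of the whole set were called higher after DSF in Huh7. At most 3 of the 7 eIF3 rises there thus kept their call on that scale. With arrays scaled to their median, 5 members of the whole set were called higher after DSF in Huh1, and EIF3M was at -0.0010. EIF3H and EIF3I were called in both lines with all arrays. EIF3I, a WD-repeat subunit of the core, read 5.37, 5.33 and 5.28 in Huh1 controls and 5.56, 5.51 and 5.62 after DSF. The Huh7 controls read 4.99, 4.98 and 4.98 and the DSF arrays 5.41, 5.25 and 5.29, without overlap in either line. EIF3A, the largest subunit, EIF3B, EIF3C and EIF3J differed between the lines after DSF by 0.46, 0.53, 0.40 and 0.41, all called, with changes of -0.12, -0.01, 0.03 and 0.11 in Huh1, none of them called. On the spike-in scale these differences were 0.15, 0.22, 0.09 and 0.10, and none was called. EIF3C has a near-identical copy that its probe may also read.

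EIF2A and EIF2D, which can deliver initiator tRNA independently of eIF2, were among the members that 5-FU lowered most in Huh7 on the 75th percentile scale. EIF2D read 1.77, 1.81 and 1.76 in Huh1 controls and 1.25, 1.00 and 1.03 after 5-FU, 0.69 lower (SE 0.07, limma adjusted p = 2.88e-06). The Huh7 controls read 1.98, 1.98 and 1.97 and the 5-FU arrays 0.73, 0.51 and 0.68, 1.34 lower (SE 0.07, limma adjusted p = 2.03e-09), or 2.53-fold. EIF2A fell from 1.90, 2.10 and 2.07 to 1.68, 1.76 and 1.75 in Huh1 and from 1.59, 1.60 and 1.56 to 0.52, 0.23 and 0.24 in Huh7, by 0.29 and 1.25. The fall was larger in Huh7 for both genes (-0.96 and -0.65, both called), and on the spike-in scale both stayed below control in Huh7 (-0.27, not called, and -0.35, called) but not in Huh1 (0.54 and 0.14). On that scale the line difference of EIF2A kept its call (-0.80) and that of EIF2D lost it (-0.50). A much dimmer probe of EIF2A was not called after 5-FU in Huh1 (0.16). After DSF, EIF2A was higher in Huh1 (0.33) and EIF2D lower (-0.19), while in Huh7 the changes were 0.01 and 0.00, not called. There the dimmer EIF2A probe was called lower after DSF (-0.49, limma adjusted p = 0.015).

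Among the EIF4 genes, EIF4E, EIF4E2, EIF4A1 and EIF4B were lower after 5-FU in both lines on the 75th percentile scale, and all of these stood above control on the spike-in scale (0.16 to 0.57 in Huh1 and 0.34 to 0.73 in Huh7). EIF4E, the cap-binding protein itself, read 2.67, 2.71 and 2.67 in Huh1 controls, 2.55, 2.50 and 2.57 after DSF and 2.25, 2.32 and 2.31 after 5-FU. In Huh7 it read 2.74, 2.78 and 2.80 in controls, 3.02, 2.93 and 2.95 after DSF and 2.56, 2.49 and 2.49 after 5-FU. The changes after 5-FU were -0.39 and -0.26. After DSF it was 0.14 lower in Huh1 and 0.20 higher in Huh7, a line difference of 0.34 (SE 0.07, limma adjusted p = 0.00135). On the spike-in scale this difference was 0.03 and not called. EIF4E2, a cap-binding paralog that acts as a repressor, was higher after DSF and lower after 5-FU in both lines. It read 3.92, 4.01 and 3.88 in Huh1 controls, 4.16, 4.15 and 4.26 after DSF and 3.52, 3.57 and 3.60 after 5-FU. The Huh7 arrays read 4.89, 4.82 and 4.86 in controls, 5.11, 5.03 and 5.03 after DSF and 4.48, 4.60 and 4.52 after 5-FU, so the groups did not overlap in either line. EIF4E3, another cap-binding paralog, was not well above background on any Huh1 array, so no change is given there, although the counts of members called in Huh1 include it (higher after DSF, lower after 5-FU). In Huh7 controls its level was -4.20, at least 4.96-fold higher than in Huh1 controls.

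The eIF4A helicases unwind mRNA ahead of the ribosome, and EIF4A2 changed differently in the lines after 5-FU. EIF4A1 read 6.60, 6.36 and 6.31 in Huh1 controls and 5.61, 5.85 and 5.78 after 5-FU, a change of -0.67. In Huh7 it went from 5.98, 5.97 and 6.02 to 5.73, 5.29 and 5.27, a change of -0.56. EIF4A2 rose in Huh1, from 5.20, 5.39 and 5.46 to 5.67, 5.75 and 5.70, and fell in Huh7, from 5.69, 5.68 and 5.72 to 5.19, 5.13 and 4.95. The changes of 0.36 and -0.61 were both called and differed by -0.96 (SE 0.11, limma adjusted p = 1.12e-05), and on the spike-in scale both were above 0 (1.19 and 0.38). EIF4A3, the helicase of the exon junction complex, was raised by DSF in both lines, from 5.37, 5.33 and 5.23 to 5.80, 5.78 and 5.77 in Huh1 and from 5.30, 5.29 and 5.33 to 5.62, 5.62 and 5.61 in Huh7 (0.47 and 0.31). After 5-FU its changes were 0.05 in Huh1, not called, and -0.24 in Huh7, called.

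EIF4G1, the scaffold that joins the cap complex to eIF3, was 0.28 lower in Huh1 after DSF, with 3.69, 3.71 and 3.73 against 4.04, 3.98 and 3.96 in controls. In Huh7 it was 0.30 higher, with 3.13, 3.08 and 3.08 against 2.81, 2.81 and 2.77, a line difference of 0.58 (SE 0.12, limma adjusted p = 0.00126). On the spike-in scale the DSF difference was 0.27 and not called. 5-FU lowered EIF4G1 by 0.61 in Huh1, its change in Huh7 was not called (-0.08, SE 0.08), and this line difference was called too (0.53). EIF4G3, its paralog, was lower after 5-FU in Huh7 (-0.63), and EIF4G2, which lacks the eIF4E-binding part, passed the threshold in none of the 4 comparisons with control (changes from -0.07 to 0.17). The eIF4A cofactor EIF4B read 4.67, 4.61 and 4.59 in Huh1 controls and 4.43, 4.31 and 4.34 after 5-FU, 0.26 lower. The Huh7 arrays read 4.52, 4.52 and 4.58 in controls and 4.04, 3.79 and 3.85 after 5-FU, 0.64 lower. Its relative EIF4H had changes of 0.13 and 0.04, not called.

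Of the 4E-binding proteins, which hold eIF4E away from eIF4G, EIF4EBP1 was lowered most by 5-FU in Huh7 and EIF4EBP2 by DSF in Huh1. EIF4EBP1 read 5.48, 5.51 and 5.53 in Huh7 controls, 5.20, 5.03 and 5.11 after DSF and 4.15, 4.15 and 4.39 after 5-FU. The fall after 5-FU was 1.28 (SE 0.09, limma adjusted p = 2.58e-08), or 2.43-fold, and on the spike-in scale the value was -0.30, not called. In Huh1 it read 3.85, 4.20 and 4.06 in controls, 4.15, 4.15 and 4.21 after DSF and 3.85, 3.69 and 3.76 after 5-FU. Its change there was -0.27 after 5-FU, called, and 0.13 after DSF, not called, and both line differences were called (-1.01 for 5-FU and -0.53 for DSF). With the slide as a block the DSF difference lost its call (-0.42). EIF4EBP1 is also a target of the transcription factor ATF4, which is translated when eIF2 is phosphorylated.

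EIF4EBP2 read 4.16, 4.12 and 4.11 in Huh1 controls and 3.42, 3.40 and 3.45 after DSF, 0.71 lower (SE 0.06, limma adjusted p = 5.43e-07), or 1.63-fold, the largest fall of a member after DSF among those measured. The Huh7 controls read 4.42, 4.43 and 4.44 and the DSF arrays 4.36, 4.21 and 4.24, 0.16 lower (adjusted p = 0.04, limma), a call lost with replicate 1 alone (-0.07), and the lines differed by 0.54 (SE 0.08, limma adjusted p = 1.95e-04). On the spike-in scale the DSF difference was 0.23 and not called. After 5-FU EIF4EBP2 was 0.38 and 0.22 lower, but in Huh7 another, dimmer probe of the gene was 0.39 higher (adjusted p = 1.29e-04, limma), so its direction there is uncertain, although the counts hold it as lower. EIF4ENIF1 carries eIF4E into the nucleus and to sites of mRNA decay. After DSF EIF4ENIF1 was 0.29 lower in Huh1 and 0.21 higher in Huh7. The difference of 0.50 was called, but not on the spike-in scale (0.19). A dimmer probe of the gene was not called in Huh1 (0.14).

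EIF5, the GTPase-activating protein that lets eIF2 release the initiator tRNA at the start codon, was, of the members well above background in both lines, the one with the largest rise after DSF in each. It read -1.58, -1.91 and -1.69 in Huh1 controls and -0.87, -0.84 and -0.99 after DSF, 0.82 higher (SE 0.13, limma adjusted p = 1.41e-04). The Huh7 controls read -1.23, -1.17 and -1.05 and the DSF arrays -0.32, -0.31 and -0.50, 0.77 higher (SE 0.13, limma adjusted p = 2.64e-04). The line difference was -0.05 (SE 0.18) and not called. After 5-FU its changes were 0.13 (SE 0.13) and 0.04 (SE 0.13), neither called. EIF5B, which joins the ribosomal subunits, instead fell after 5-FU in both lines. It went from 1.86, 1.84 and 1.81 to 1.14, 1.21 and 1.23 in Huh1, and in Huh7 its mean went from 1.57 to 1.22. The changes were -0.64 and -0.36, or 0.18 and 0.63 on the spike-in scale, and after DSF it rose in Huh7 (0.24).

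EIF5A and EIF5A2 encode isoforms of the hypusine-carrying factor that helps ribosomes through difficult peptide bonds, and 5-FU moved them in opposite directions. EIF5A went from 3.81, 3.75 and 3.64 in controls to 2.51, 2.51 and 2.61 in Huh1, and from 2.58, 2.59 and 2.54 to 1.93, 1.94 and 1.77 in Huh7. The falls were 1.19 and 0.69 (adjusted p = 1.60e-08 and 4.64e-07, limma). On the spike-in scale the fall in Huh1 stayed (-0.36) and that in Huh7 did not (0.30). EIF5A2 went from -0.38, -0.13 and -0.23 to -0.04, 0.19 and 0.21 in Huh1 and from -1.74, -1.81 and -1.76 to -0.55, -0.19 and -0.46 in Huh7. The rises were 0.37 and 1.37, the latter 2.58-fold (SE 0.09, limma adjusted p = 2.70e-08), and the lines differed by 1.00. DSF lowered EIF5A in Huh1 by 0.33 and raised it in Huh7 by 0.33, a difference of 0.66 (SE 0.09, limma adjusted p = 6.28e-05). On the spike-in scale this difference was 0.35 and not called. EIF5AL1, a near-identical intronless relative of EIF5A, passed the threshold in none of the comparisons with control, and its signal cannot be told apart from EIF5A where their sequences match.

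EIF6, which keeps the large ribosomal subunit from joining too early and is needed for its assembly, was higher in all 4 comparisons with control, under spike-in scaling of the 5-FU values as well (1.26 and 1.75). It read 5.48, 5.62 and 5.58 in Huh1 controls, 5.82, 5.80 and 5.90 after DSF and 5.94, 5.99 and 6.02 after 5-FU. The Huh7 arrays read 4.80, 4.74 and 4.77 in controls, 5.49, 5.43 and 5.44 after DSF and 5.72, 5.57 and 5.31 after 5-FU. The rises were 0.28 and 0.69 for DSF and 0.43 and 0.77 for 5-FU, with no overlap between treated and control arrays. They were larger in Huh7 by 0.40 for DSF and 0.34 for 5-FU, both called. On the spike-in scale these differences were 0.09 and 0.49, and neither was called. Without the array on another slide the DSF call in Huh1 was lost (0.25, adjusted p = 0.0682). EIF3J-DT, a noncoding RNA divergent from EIF3J that the naming rule also took in, passed the threshold after 5-FU in Huh1 (-0.59), where its control arrays spread from -1.70 to -0.58 and overlapped with the treated ones.

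**Figure D4:**
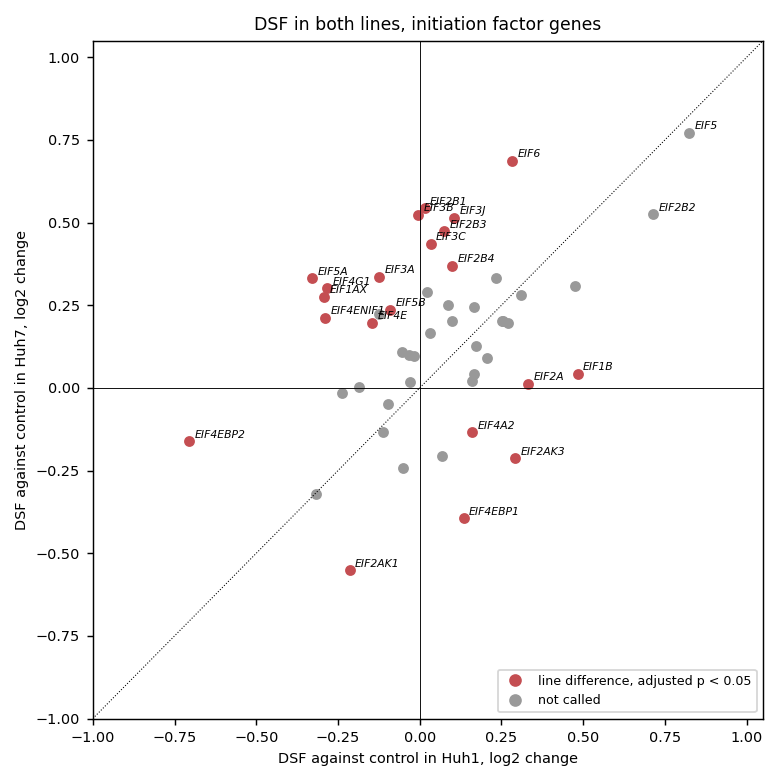
Log2 change after DSF in Huh1 (horizontal axis) and in Huh7 (vertical axis) of the members, with EIF4E3 left out; red points had a line difference with a limma adjusted p under 0.05, grey points did not, and the dotted line marks equal change. EIF5 and EIF2B2 lie at the upper right near the line of equal change, and EIF1AX, EIF4E, EIF4G1, EIF4ENIF1 and EIF5A lie to the left of 0 in Huh1 and above 0 in Huh7. Scaling to spike-ins moves all points by 0.13 in Huh1 and -0.18 in Huh7. None of the line differences of EIF1AX, EIF4E, EIF4G1, EIF4ENIF1 and EIF5A was called on that scale.

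To see what the members share in sequence, their RefSeq starts (GRCh38.p14) were searched for a pyrimidine tract, defined as a C at the annotated start followed without a gap by at least 4 bases that are C or T, on the strand of the gene only. The tables held a start for 45 of the 53 members, and 8 of these (17.8%) had the tract, against 5.14% of all 27305 genes. The 8 were EIF2A, EIF2D, EIF3D, EIF3F, EIF3K, EIF3M, EIF4A2 and EIF4B. They are printed here from 10 bases before the start to 15 from the start on, with the tract in capitals, because most of them moved together after 5-FU. The starts of EIF2AK4, EIF5A2 and EIF6, which rose after 5-FU, and of EIF5A, which fell, follow as examples without the tract. A match describes letters at an annotated start and does not show a working element.

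EIF3F, chr11:7987327-7987351, plus strand: cttccgcctcCTTCTTTCTCgacaa
EIF2D, chr1:206612451-206612475, minus strand: ccagccgggcCCTTTTCgcggccgg
EIF2A, chr3:150546777-150546801, plus strand: cgagcggtttCTCTTTCCgggacaa
EIF4B, chr12:53006446-53006470, plus strand: tcatccgggtCTTTTgcgttctctt
EIF3M, chr11:32583821-32583845, plus strand: gcccagttccCTTTTCCggtcggcg
EIF4A2, chr3:186783567-186783591, plus strand: gcgccgctgtCTTTTCagtcgggcg
EIF3K, chr19:38619178-38619202, plus strand: tttccaccacCTCTTCCTgttcccg
EIF3D, chr22:36529152-36529176, minus strand: cgcatgtttcCTCTTTTCCTggttt
EIF5A, chr17:7306989-7307013, plus strand: tgggaacccgaccacactagcgcgc
EIF6, chr20:35284703-35284727, minus strand: tggtaagctggtgtgaggggaacct
EIF2AK4, chr15:39934105-39934129, plus strand: gcccgtccccagcgcggagccccgc
EIF5A2, chr3:170908623-170908647, minus strand: cccgtctcttggaactgccgcggcc

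After 5-FU in Huh7, 7 of the 8 members with the tract were called lower and none higher, with a median change of -0.62; the exception was EIF3D (0.04, not called), whose tract in the list above is as long as that of EIF3F. Of the 35 other members with a start and a printed value, 12 were lower and 8 higher, with a median of 0.01. In Huh1, 5 of the 8 were lower and EIF4A2 was higher (median -0.28), against 13 lower and 7 higher of 34 (median -0.06). Both groups shift equally with the scale: on the spike-in scale in Huh7 the medians were 0.36 and 0.99, with 2 of the 8 lower and 5 higher. After DSF in Huh7 none of the 8 was called, against 22 higher and 2 lower of 35 without the tract, and in Huh1 4 of the 8 were higher and 1 lower. Members were seen to group in this way before the tract was searched for, so the counts are a description and carry no test.

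Among the tested genes outside the set with a start in the table, 45.5% of the 839 with the tract were called lower after 5-FU in Huh7, against 30.0% of the 11570 without it, and 37.9% against 29.2% in Huh1. After DSF the shares called lower were 28.0% and 23.9% in Huh7, and 26.7% and 27.1% in Huh1. The members that 5-FU lowered were not confined to those with the tract: EIF5A, EIF4A1 and EIF5B had none at their listed starts, and EIF3E, EIF3H, EIF3L and EIF4EBP1 had no start in the table.

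DSF and 5-FU were compared directly, drug against drug in the same line, at the doses given above, which differ. In Huh1, 30 of 52 members were higher after DSF and 7 lower (all genes 30.5% and 25.3%), with a median difference of 0.25. The counts for Huh7 were 32 and 4 (all genes 34.5% and 30.7%), with a median of 0.41. Of these, 27 were higher after DSF in both lines and 3 were lower in both, namely EIF1AD, EIF2AK2 and EIF2AK4 (2854 and 2435 of all 15852 genes). The balance turned with the scale: against spike-ins 2 members were higher and 31 lower in Huh1, while the counts for Huh7 were 0 and 44. In Huh7 the widest positive differences were those of EIF3F (1.42, SE 0.06), EIF2D (1.34, SE 0.07), EIF2A (1.26, SE 0.08) and EIF3E (1.20, SE 0.06), and the widest negative ones those of EIF5A2 (-1.12, SE 0.09) and EIF1AD (-0.81, SE 0.09). The difference of EIF2AK4 in Huh1 was -1.05. All 13 eIF3 subunits had fitted differences above 0 in both lines, of which 10 in Huh1 and 11 in Huh7 were called on the 75th percentile scale. For EIF6 and EIF2B4 the drugs did not differ past the threshold in either line, with differences of -0.14 (SE 0.08) and -0.08 (SE 0.08) for EIF6 and -0.02 (SE 0.06) and -0.02 (SE 0.06) for EIF2B4.

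The lines themselves differed in most members before treatment: 38 of 52 were called between Huh7 and Huh1 controls, 16 higher and 22 lower in Huh7, where 77.9% of all genes were called. The control arrays of the lines lay on different slides, so line and slide cannot be told apart here. Of 13 eIF3 genes 10 were lower in Huh7, from -1.19 for EIF3A to -0.34 for EIF3I, and EIF3L was 0.86 higher. EIF5A and EIF5A2 were lower in Huh7 by 1.17 and 1.52, while EIF4EBP1, EIF1AX and EIF2AK3 were higher by 1.47, 1.33 and 1.31. The drug effect differed between the lines for 23 members with DSF (all genes 46.3%) and 27 with 5-FU (all genes 43.6%), and 13 with DSF without the arrays on other slides. On the spike-in scale the counts were 6 with DSF and 7 with 5-FU. The counts of 23 and 27 include EIF4E3, whose difference rests on Huh1 values not well above background and is not given.

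Beside the members, 54 other genes of translation and its control were counted, all of them tested. After DSF 13 were higher and 13 lower in Huh1 (all genes 26.4% and 26.3%), against 24 and 12 in Huh7 (29.1% and 24.1%). After 5-FU 7 were higher and 26 lower in Huh1 (25.9% and 29.1%), against 13 and 26 in Huh7 (32.5% and 31.0%), on the 75th percentile scale. Among regulators of eIF2 phosphorylation, PPP1R15A (GADD34, the stress-induced subunit that leads a phosphatase to eIF2) rose in all 4 comparisons with control. It read -0.10, -0.49 and -0.40 in Huh1 controls, 3.33, 3.33 and 3.38 after DSF and 1.46, 2.01 and 2.01 after 5-FU, and changed by 3.68 and 2.29 after DSF and 2.16 and 1.06 after 5-FU. DNAJC3, an inhibitor of PERK and PKR, rose after DSF by 1.00 and 0.87. IMPACT, which restrains GCN2, was lower by 0.69 and 0.32 after DSF and by 1.19 and 1.14 after 5-FU. Of 8 genes of elongation, which include the kinase EEF2K besides elongation factors, 6 were lower after 5-FU in each line (all genes 29.1% and 31.0%). Among them were EEF2, which moves the ribosome along and has the tract at its start (-0.56 and -1.27), and its kinase EEF2K (-1.79 and -2.43). Of the enzymes that make hypusine on eIF5A, DOHH rose in all 4 comparisons (0.65 and 0.69 after DSF, 0.81 and 0.69 after 5-FU) and DHPS fell after 5-FU (-0.52 and -1.16). The mitochondrial initiation factor MTIF3 was lower in all 4 comparisons (-0.52 and -0.34 after DSF, -0.46 and -0.80 after 5-FU). Among 15 genes of mTOR signaling, PDCD4, an inhibitor of eIF4A, was lower in all 4 as well (-0.41 and -1.26 after DSF, -0.28 and -0.67 after 5-FU). Of the 15, 3 were higher and 5 lower after DSF in Huh1, against 8 and 5 in Huh7. After 5-FU 3 were higher and 6 lower in Huh1, against 3 and 5 in Huh7. PDCD4 did not change most among them, since the widest fall was -3.43, after 5-FU in Huh7. Scaling to spike-ins moves the 5-FU changes of all these genes up by 0.83 in Huh1 and 0.98 in Huh7. The 5-FU falls of MTIF3 and PDCD4 in both lines, and of EEF2 and DHPS in Huh1, were smaller than this and become rises there.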

How the data were processed

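EpCAM+ cells of 6 groups were hybridized to one-color human gene expression arrays, 3 arrays per group, and groups were taken from the sample labels. The authors deposited the scanner output of each array, in which Agilent Feature Extraction (version 10.7.1.1 per the labels) gives the spot intensity after background subtraction and detrending, with low values replaced by a surrogate. A table of normalized intensity, deposited as well, differed from these files by a constant per array, within 0.05 log2 for 100% of values. The values are intensity, not counts, so the number of arrays limits the precision.

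Here the log2 intensity of a probe was the mean of its spots without outlier flags, less the log2 75th percentile of the array. Per array 59.9% to 71.1% of 42405 probes were well above background; 78 probes with no unflagged spot on an array were left out. Symbols came from RefSeq accessions (25771 of 27134 such probes matched) in a table whose build is not that of the array design, so only names were taken from it. Tests were limma fits (limma 3.58.1, R 4.3.3) of 6 groups, tested on simulated data with known changes; tables and figures were made in Python 3.11.15 (pandas 2.3.3, matplotlib 3.10.9, numpy 2.4.6). Members named with values on each array were the eIF2 kinases, 4E-binding proteins and eIF2 subunits, and in each other group the 2 genes with the largest mean change called the same way in both lines; others are given by counts, ranges and called changes. The members and gene lists were chosen with earlier results of these data known. A marker gene is not reported here. Sequences came from RefSeq starts (GRCh38.p14), with a C and at least 4 further C or T bases as the tract. Alternatives were quantile, median and spike-in scaling, normexp (offset 50), other filters, the mean of a gene's probes, slide and replicate blocks, the groups compared alone, the deposited table and leaving out each array; normexp on the median signal, in place of the mean signal planned, and the fit without the arrays on other slides were chosen after seeing the data.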

Additional observations from a re-analysis of the deposited data

Results flagged for a closer look

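The effect of a drug differed between Huh7 and Huh1 for the members listed here, by the limma test of the difference itself (adjusted p under 0.05). Each value is the log2 effect in Huh7 minus that in Huh1. Most arrays of the lines lay on different slides. Of the 21 differences with DSF given here, the slide as a block kept 15 called and 1 slide per line kept 13. Those of EIF2AK1, EIF2AK3, EIF2A, EIF4A2, EIF4EBP1 and EIF5B lost the call under both, and those of EIF1B and EIF6 within 1 slide per line. Of the 25 with 5-FU, the slide as a block kept 25 and 1 slide per line 23. With DSF the effect was higher in Huh7 for EIF1AX (0.57), EIF2B1 (0.53), EIF2B3 (0.40), EIF2B4 (0.27), EIF3A (0.46), EIF3B (0.53), EIF3C (0.40), EIF3J (0.41), EIF4E (0.34) and EIF4G1 (0.58). It was also higher for the binding proteins EIF4EBP2 (0.54) and EIF4ENIF1 (0.50) and for the late-acting factors EIF5B (0.33), EIF5A (0.66) and EIF6 (0.40). With DSF the effect was lower in Huh7 for EIF1B (-0.44), EIF2A (-0.32), EIF2AK1 (-0.34), EIF2AK3 (-0.51), EIF4A2 (-0.29) and EIF4EBP1 (-0.53).

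With 5-FU the effect was lower in Huh7 for the subunits EIF2S2 (-0.48), EIF2B5 (-0.44), EIF3E (-0.57), EIF3F (-0.45), EIF3H (-0.60), EIF3L (-0.74) and EIF3M (-0.43), for the kinase EIF2AK3 (-0.61), for EIF2A (-0.96) and EIF2D (-0.65), and for the EIF4 genes EIF4A2 (-0.96), EIF4A3 (-0.29), EIF4G3 (-0.51), EIF4B (-0.38) and EIF4EBP1 (-1.01). The effect was higher in Huh7 for EIF2B1 (0.23), EIF2B2 (0.37), EIF2B4 (0.27), EIF3A (0.37), EIF3J (0.28) and EIF4G1 (0.53) and for EIF5B (0.29), EIF5A (0.51), EIF5A2 (1.00) and EIF6 (0.34). Scaling to spike-ins moves these differences by the same amount for every gene, since the shift differs between the lines, and kept 5 of the DSF and 6 of the 5-FU differences called in the same direction. Those kept were EIF1B, EIF2A, EIF2AK3, EIF4A2 and EIF4EBP1 with DSF. With 5-FU they were EIF2A, EIF4A2, EIF4EBP1, EIF4G1, EIF5A and EIF5A2.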

How the results depend on the processing

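Scaling decided the direction after 5-FU. With spike-in scaling, Huh1 had 43 members higher and 1 lower (median 0.69), and Huh7 43 higher and 2 lower (median 0.86). For DSF against 5-FU, Huh1 then had 2 higher and 31 lower (median -0.44), and Huh7 0 higher and 44 lower (median -0.75). For DSF against control, Huh1 had 10 higher and 1 lower and Huh7 had 3 higher, and the line differences fell to 6 called for DSF and 7 for 5-FU. Called 5-FU changes that turned positive on that scale in Huh1 were those of EIF1 (0.48), EIF1AX (0.43), EIF2A (0.54), EIF2B3 (0.58), EIF2B5 (0.68), EIF2D (0.14), EIF3A (0.45), EIF3E (0.15), EIF3H (0.49), EIF3J (0.47), EIF3J-DT (0.24), EIF3K (0.54), EIF3L (0.43), EIF4A1 (0.16), EIF4B (0.57), EIF4E (0.44), EIF4E2 (0.46), EIF4EBP1 (0.56), EIF4EBP2 (0.44), EIF4G1 (0.22) and EIF5B (0.18), and in Huh7 those of EIF1 (0.67), EIF1AX (0.80), EIF2AK1 (0.60), EIF2AK3 (0.43), EIF2B5 (0.40), EIF2S2 (0.50), EIF3H (0.049), EIF3K (0.77), EIF3M (0.46), EIF4A1 (0.43), EIF4A2 (0.38), EIF4A3 (0.74), EIF4B (0.34), EIF4E (0.73), EIF4E2 (0.66), EIF4EBP2 (0.77), EIF4G3 (0.36), EIF5A (0.30) and EIF5B (0.63).

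Median scaling, which moved all probes by -0.17 in DSF against control in Huh1, gave 5 higher and 17 lower there with a median of -0.12, turned EIF2B5 (-0.014), EIF2S2 (-0.0073) and EIF3M (-0.0010), and gave 18 higher for DSF against 5-FU in Huh1. Quantile normalization gave 14 and 15 members higher after 5-FU in Huh1 and Huh7 and 10 lower for DSF against 5-FU in Huh7, and turned the 5-FU changes of EIF1 (0.065), EIF3H (0.021) and EIF3K (0.0037) in Huh1 and EIF1 (0.23), EIF1AX (0.063) and EIF3K (0.032) in Huh7. The mean of a gene's probes turned EIF2S2 after DSF in Huh1 (-0.13) and EIF4EBP2 after 5-FU in Huh7 (0.085). Normexp moved all probes by -0.15 and -0.13 after 5-FU in Huh1 and Huh7. Without the filter on dim probes, 5 members were lower after DSF in Huh1.

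The slide as a block left 1 member lower after DSF in Huh7 and 15 DSF line differences. Within 1 slide per line, 10 members were higher after DSF in Huh1, 1 lower in Huh7, and 13 had a DSF line difference, with the lone Huh7 DSF array assumed to vary like the other groups. Leaving out each array gave 5 to 9 members lower after DSF in Huh1 (5 without DSF replicate 1 or 2) and 2 to 6 in Huh7 (2 without any control array or DSF replicate 2 or 3). Replicate numbers did not pair the arrays: same-numbered arrays deviated with correlations of -0.09 to 0.02, and with the replicate block 5 members were lower after DSF in Huh1, with no other count of members moved by over 1.5 times. Normexp on the mean signal was not run, and the median signal was used. Each group held 3 arrays, and small changes were not resolved.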
